A study of Mus musculus with 6 samples.

Results

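Interferon-stimulated genes are the genes that cells switch on when interferon, the antiviral signalling protein, binds its receptor. A set of 35 named mouse genes of this kind was followed here, chosen by symbol from the 54532 genes of the deposited count table. All 35 symbols were found, and all 35 passed the low-count filter that left 15591 genes for testing. The RNA came from iWAT, the inguinal white fat depot under the skin, of old mice. Estrogen-treated animals gave 3 libraries and vehicle-treated animals gave 3, and both groups had been kept in the cold for 7 days. The series asks what estrogen does to beige adipocytes, the heat-producing fat cells that cold induces in this depot. The sources used here do not give the strain, sex, age in months, dose or route of treatment, and do not state whether the libraries were from different animals. The p-values therefore measure the spread between these libraries, which may in part be technical.

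Type I interferons bind the receptor pair encoded by Ifnar1 and Ifnar2, and the kinases JAK1 and TYK2 then phosphorylate STAT proteins, STAT2 among them. Together with IRF9, STAT2 works in the complex ISGF3, which binds the interferon-stimulated response element in promoters and turns on genes whose products detect and restrain viruses. IRF7, itself induced, raises interferon production further. Some of the same genes, the guanylate-binding proteins above all, also respond to type II interferon. In adipose tissue, interferon-stimulated genes are expressed by adipocytes as well as by the resident immune and stromal cells.

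Library totals ran from 16046601 to 20736771 counts, so the detection floor of 3 counts lay between 0.130 and 0.209 CPM (CPM being counts scaled to library size with TMM factors). Adipocyte markers were abundant in every library, with summed values of 19590 to 37450 CPM with estrogen and 13450 to 20850 CPM with vehicle over 8 genes, as the tissue label requires. Several libraries stood apart from the others of their group in markers of other cells. Estrogen replicate 1 held skeletal muscle markers (7007 CPM over 6 genes, against 2.65 to 59.3 CPM in the other 5 libraries). Estrogen replicates 1 and 3 held B cell markers (194.5 and 127.5 CPM over 9 genes, against 4.73 to 7.81 CPM in the other 4). Vehicle replicate 1 held the neutrophil markers at 235 CPM over 10 genes, against 59.1 to 75.2 CPM elsewhere. In whole tissue, fewer cells of a type and less RNA per cell cannot be told apart.

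The members were then compared by their promoter sequences. RefSeq promoter windows (250 bases before to 50 after the start site, GRCm38.p6, the same assembly as the mm10 build of the counts) were matched for 26 of the 35 members. The core of the interferon-stimulated response element was searched as GAAA, any 2 bases and GAAA again (GAAA-NN-GAAA) on both strands, with overlapping matches kept. It was found in the windows of 15 of the 26 members (57.7%), against 1079 of 27025 genes with a window (3.99%) and 1131 of all 32851 windows (3.44%). The STAT dimer motif TTCNNNGAA, which reads the same on both strands, was found for 6 of the 26 members (23.1%), against 9.55% of genes. A match is a description of letters in a window. The stretches below are those of 3 members with a large excess in vehicle replicate 1 whose windows hold a match (Isg15, Oas3 and Ifit1, while the window of Oasl1, with an excess between those of Isg15 and Ifit1, holds none), of a near-identical gene pair (Ifit3 and Ifit3b), of a member at equal levels in both groups (Gbp2), and of the member with the smallest p (Ifitm3). They are written 5′ to 3′ on the coding strand, with matches to GAAA-NN-GAAA or its reverse complement in capitals.
Isg15, chr4:156200819-156200968, minus strand: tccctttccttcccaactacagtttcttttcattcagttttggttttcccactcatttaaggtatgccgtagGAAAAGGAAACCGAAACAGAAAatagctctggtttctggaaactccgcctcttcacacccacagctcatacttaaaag
Oas3, chr5:120777660-120777809, minus strand: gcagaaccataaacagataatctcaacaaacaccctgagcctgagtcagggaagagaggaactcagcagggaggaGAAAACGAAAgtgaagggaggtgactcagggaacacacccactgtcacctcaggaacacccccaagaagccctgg
Ifit1, chr19:34640739-34640888, plus strand: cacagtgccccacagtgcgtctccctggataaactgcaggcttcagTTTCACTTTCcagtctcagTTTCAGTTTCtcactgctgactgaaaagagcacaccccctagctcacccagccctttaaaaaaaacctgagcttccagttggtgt
Ifit3, chr19:34583319-34583438, plus strand: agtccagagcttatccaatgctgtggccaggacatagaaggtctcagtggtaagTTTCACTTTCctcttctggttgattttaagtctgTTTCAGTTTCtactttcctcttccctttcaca
Gbp2, chr3:142620513-142620662, plus strand: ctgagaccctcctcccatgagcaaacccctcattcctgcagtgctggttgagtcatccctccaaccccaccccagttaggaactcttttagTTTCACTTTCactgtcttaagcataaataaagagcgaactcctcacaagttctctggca
Ifitm3, chr7:141010716-141010743, minus strand, just after the start site: gGAAAAGGAAActtctgaGAAACCGAAA

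Isg15 carried 3 overlapping matches in one run. Ifit1 and Ifit3 carried 2 separate matches each. The matching stretch of the Ifit3b promoter (chr19:34607715-34607834) differed from that of Ifit3 at 0 of 120 bases. Their longest transcripts were 98.0% identical over 1697 aligned bases, so the counts of this pair are uncertain, and the same holds for Oas1a, whose transcript was 97.5% identical to that of its neighbour Oas1g over 1860 bases. Of the 35 members, 12 overlapped another annotated gene and 10 of these a gene on the opposite strand. Among them were Parp9 and Dtx3l, which share 682 bases at their 5′ ends and are transcribed away from each other. Without a stated strand setting, reads from such overlaps cannot be assigned with certainty.

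Across the 35 members, levels were mostly lower with estrogen than with vehicle, and no member passed the test. The fitted log2 fold change of estrogen over vehicle was below 0 for 30 of 35 members, against 49.7% of all tested genes. The median log2 fold change was -0.45 over the members, with a range from -1.31 to 0.36, and 0.0025 over all tested genes. By edgeR's quasi-likelihood test with Benjamini-Hochberg adjustment over all 15591 genes, 0 members were called in either direction, and 0% of all genes were called (smallest adjusted p = 0.207). Without estrogen replicate 2, 13 genes were called, 0 of them members. At an unadjusted p under 0.05, 5 of 35 members (14.3%) were lower, against 10.9% of all genes, and 0 members were higher, against 9.49%. DESeq2, an alternative test, called 2 members lower (Ifitm3 and Oas2), where it called 3.0% of all genes lower, and 0 members higher, against 2.48% of all genes. Every estrogen library lay under every vehicle library for 9 members (25.7%), against 14.7% of all genes, and over every vehicle library for 1 member, against 12.8%. The groups overlapped for the other 25.

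**Figure D1:**
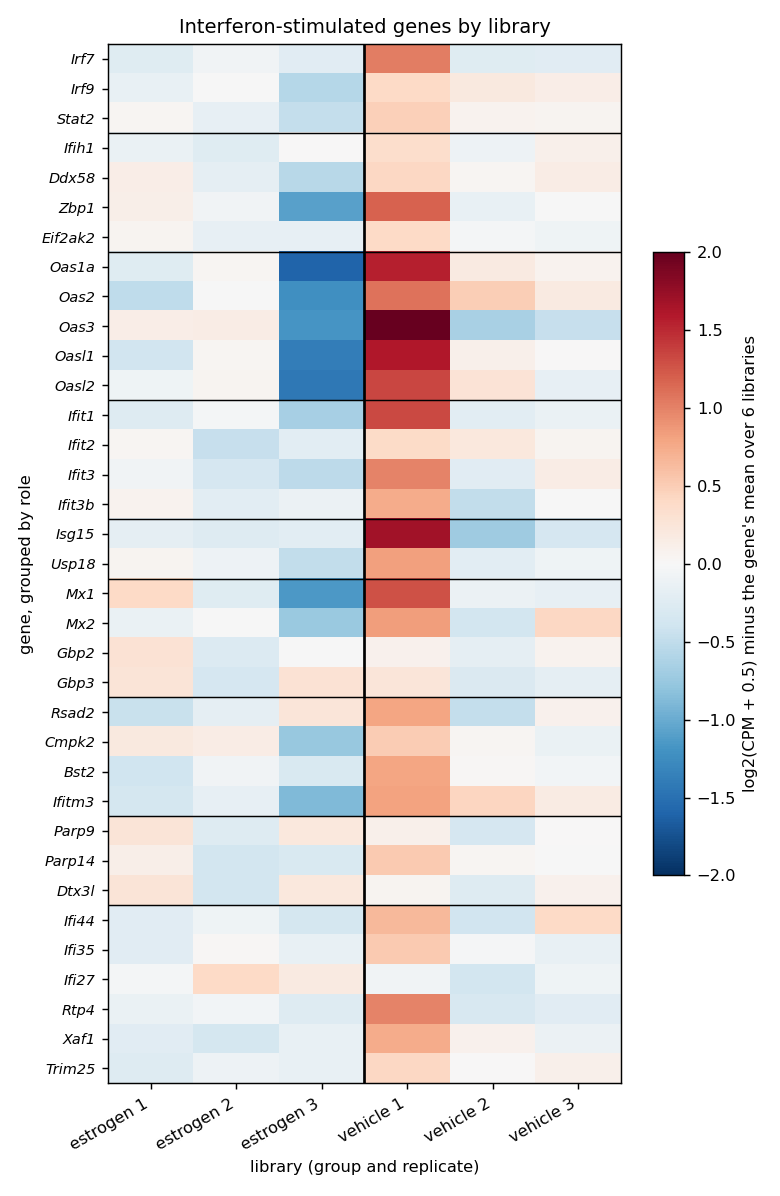
Each cell is the log2(CPM + 0.5) of a member (row, grouped by role) in a library (column, estrogen left of vehicle) minus the gene's mean over the 6 libraries. Vehicle replicate 1 is the highest library for 30 of 35 members, and estrogen replicate 3 the lowest for 16.

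The spread between vehicle libraries was the main feature of these genes. Vehicle replicate 1 was the highest of the 6 libraries for 30 of 35 members (85.7%), while it was the highest for 15.1% of all tested genes. Vehicle replicates 2 and 3 were the highest for 0 members. Estrogen replicate 3 was the lowest library for 16 of 35 members, and for 29.4% of all tested genes, and the other low values were in estrogen replicate 2 and vehicle replicate 2 (8 each) and estrogen replicate 1 (3). Vehicle replicate 1 exceeded the mean of vehicle replicates 2 and 3 for each member, from 1.10-fold for Dtx3l to 6.98-fold for Oas3, by over 1.5-fold for 20 members and over 2-fold for 13. The share of all tested genes past these folds was not computed. The 35 members summed to 1374, 1507 and 1318 CPM with estrogen and to 1920, 1327 and 1417 CPM with vehicle, so the groups overlapped. With Ifi27 left out, which alone holds a large part of the total and has the opposite sign, the members summed to 832, 779 and 689 CPM with estrogen and to 1391, 898 and 896 CPM with vehicle. Each of these 3 estrogen sums lay under each of the vehicle sums, and vehicle replicates 2 and 3 were nearer to the estrogen libraries than to vehicle replicate 1. Ifi27 was left out with its values known, and the separation of the sums depends on that choice. With members weighted equally, as the mean log2 deviation from each gene's own mean, the groups overlapped. This mean was -0.063, -0.124 and -0.462 with estrogen and 0.774, -0.113 and -0.012 with vehicle.

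Without vehicle replicate 1, the median log2 fold change of the members was -0.13, 24 of 35 were below 0 (49.7% of all genes), and 1 member, Ifitm3, was lower at an unadjusted p under 0.05, against 8.83% of all genes. Leaving out the library that was the highest for 30 members largely fixes the direction of such a shift in advance. The fitted change moved nearer to 0 for 30 members and further from it for 5, and the sign turned for 6. These 6 were Irf7, Oas3, Ifit3b, Isg15, Rsad2 and Rtp4. The 9 members with non-overlapping lower values kept their estrogen libraries under vehicle replicates 2 and 3 by construction, and no other member joined them (25.7%, against 21% of all genes). Without estrogen replicate 3, the library lowest for 16 members, the median was -0.41 and 3 members were lower at an unadjusted p under 0.05 (7.60% of all genes). That number was 11 without vehicle replicate 2 (5.04% of all genes) and 9 without vehicle replicate 3 (9.66% of all genes).

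Of the transcription factors that drive the response, Irf9 and Stat2 were at lower values in each estrogen library than in each vehicle library, and Irf7 was not. Irf9, the DNA-binding subunit of ISGF3 (ENSMUSG00000002325, chromosome 14, 55603571 to 55610030, mm10), was at 27.9, 30.9 and 20.7 CPM in estrogen replicates 1 to 3 and at 41.3, 35.6 and 34.1 CPM in vehicle replicates 1 to 3. The groups did not overlap, and all 3 vehicle libraries were close together. Its log2 fold change was -0.48 ± 0.17 (SE; edgeR adjusted p = 0.209), and -0.40 ± 0.19 without vehicle replicate 1. Stat2, which encodes a subunit of the same complex, was at 42.1, 36.4 and 29.3 CPM with estrogen and at 56.9, 43.1 and 42.5 CPM with vehicle. Estrogen replicate 1 came close to vehicle replicates 2 and 3, so that the gap between the groups was narrow (log2 fold change -0.40 ± 0.18). Irf7, the amplifier of interferon production, was at 28.6, 32.3 and 29 CPM with estrogen and at 69.5, 28.6 and 28.9 CPM with vehicle. All libraries but vehicle replicate 1 were alike, and its log2 fold change was -0.50 ± 0.35 with all libraries and 0.06 ± 0.13 without that one.

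**Figure D2:**
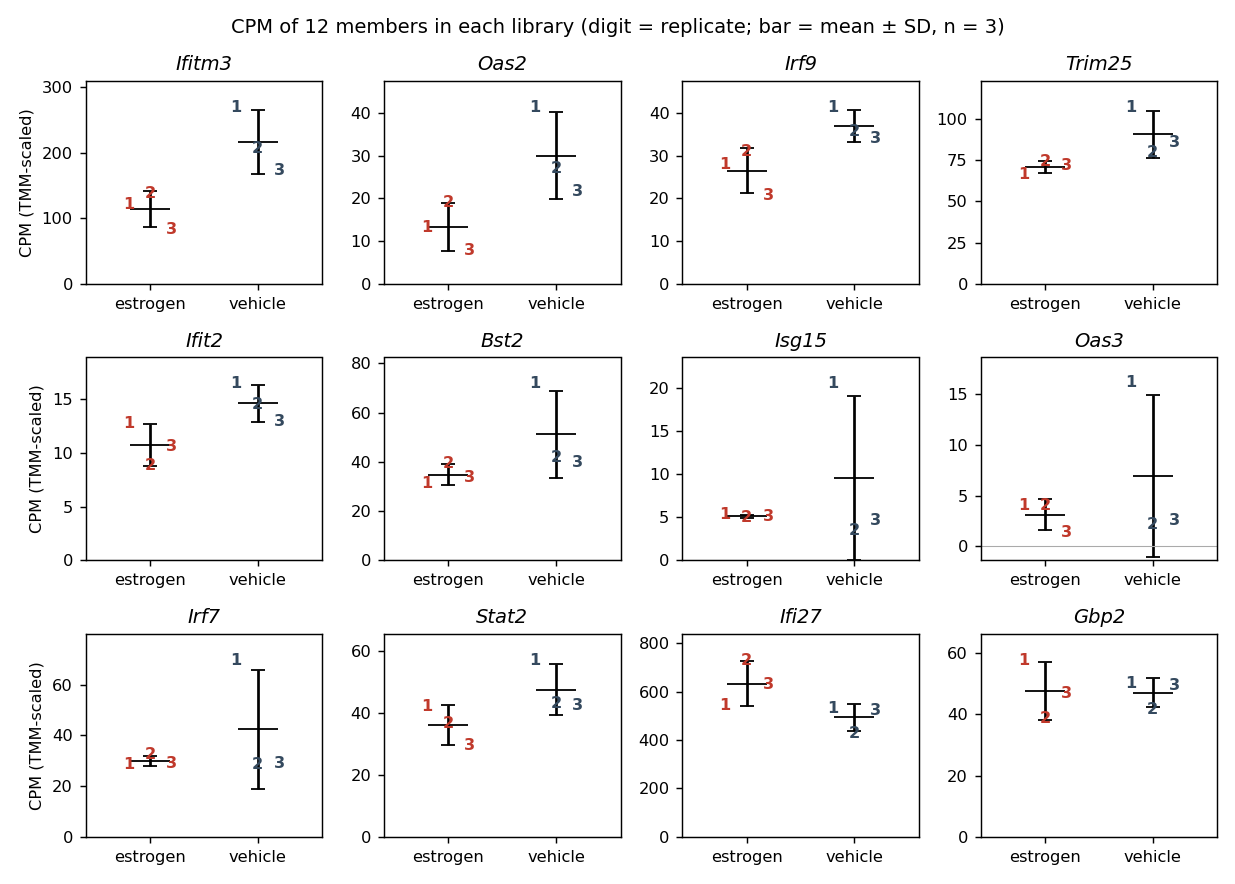
CPM (linear axis) of 12 members, with each library drawn as its replicate number, estrogen left of vehicle, and mean ± SD as bars (n = 3 per group). Ifitm3, Oas2, Irf9, Trim25 and Ifit2 are separated between the groups, whereas for Isg15, Oas3 and Irf7 vehicle replicate 1 is apart from the other 5 libraries.

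Of the membrane effectors, Ifitm3 had the smallest p of all members. It encodes a protein of endosomal membranes that blocks virus entry (ENSMUSG00000025492, chromosome 7, 141009586 to 141010770). Ifitm3 was at 121, 138 and 83.6 CPM with estrogen and at 269, 207 and 173 CPM with vehicle. The highest estrogen library was under the lowest vehicle library, and the averages were 114 ± 27.8 and 217 ± 48.7 CPM (SD, n = 3 each). The log2 fold change was -0.92 ± 0.24 (edgeR unadjusted p = 0.00575, adjusted p = 0.207) and -0.74 ± 0.24 without vehicle replicate 1. DESeq2 gave an adjusted p of 0.0224, and the adjusted p ran from 0.0224 to 0.523 over 13 alternatives. Bst2, which encodes tetherin, the protein that holds budding virus at the cell surface, was at 31.2, 39.5 and 33.5 CPM with estrogen and at 71.6, 42.0 and 39.8 CPM with vehicle. Estrogen replicate 2 nearly reached vehicle replicate 3, and the log2 fold change of -0.56 ± 0.24 became -0.24 ± 0.14 without vehicle replicate 1.

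Rsad2, which encodes viperin, an enzyme that makes a chain-terminating nucleotide, and its neighbour Cmpk2, a mitochondrial nucleotide kinase, lie 12751 bases apart on chromosome 12 and are transcribed away from each other. Rsad2 was at 8.40, 10.2 and 13.9 CPM with estrogen and at 20.6, 8.25 and 12.4 CPM with vehicle, and Cmpk2 was at 13.7, 13.4 and 6.90 CPM with estrogen and at 17.2, 12.2 and 10.8 CPM with vehicle. The groups overlapped for both. Estrogen replicate 3 was the highest estrogen library for Rsad2 and the lowest for Cmpk2, so these neighbours did not follow each other within that group.

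The oligoadenylate synthetase family had the lowest median of the roles, a log2 fold change of -1.16 over 5 members, which was -0.56 without vehicle replicate 1. The family is named for enzymes that sense double-stranded RNA and make the oligoadenylates that activate RNase L. Its genes form clusters on chromosome 5. Oas2 (ENSMUSG00000032690, chromosome 5, 120730333 to 120749853) was at 13.3, 19.0 and 7.87 CPM with estrogen and at 41.3, 27.0 and 21.7 CPM with vehicle. The groups did not overlap, and the log2 fold change was -1.16 ± 0.36 (edgeR adjusted p = 0.207) and -0.87 ± 0.36 without vehicle replicate 1. DESeq2 gave an adjusted p of 0.0456, and the adjusted p ran from 0.0456 to 0.569 over the alternatives.

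Oas1a was at 6.84, 8.38 and 2.37 CPM with estrogen and at 24.9, 9.26 and 8.59 CPM with vehicle. The highest estrogen library lay just under the lowest vehicle library. Oas3, directly beside Oas2, was at 4.04, 4.06 and 1.32 CPM with estrogen and at 16.2, 2.13 and 2.52 CPM with vehicle, where 2 estrogen libraries exceeded 2 vehicle libraries. Its log2 fold change was -1.13 ± 0.85 with all libraries and 0.44 ± 0.53 without vehicle replicate 1. The oligoadenylate synthetase-like genes Oasl1, which in the mouse restrains translation of Irf7, and Oasl2 had log2 fold changes of -1.31 ± 0.57 and -0.996 ± 0.49, with overlapping groups. The summed level of the 5 genes was 48.7, 59.7 and 21.2 CPM with estrogen and 156, 70.9 and 58.0 CPM with vehicle.

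The 4 IFIT genes, whose products bind viral RNA and block its translation, lie in one cluster on chromosome 19. They summed to 34.4, 28.9 and 26.7 CPM with estrogen and to 68.0, 33.8 and 37.0 CPM with vehicle. Ifit2 (ENSMUSG00000045932, chromosome 19, 34550694 to 34576419) was at 12.7, 8.84 and 10.6 CPM with estrogen and at 16.4, 14.4 and 12.9 CPM with vehicle. Its groups did not overlap, though estrogen replicate 1 nearly reached vehicle replicate 3, and the log2 fold change was -0.44 ± 0.19. Ifit1 and Ifit3 were at 2.95 and 2.07 times the mean of the other vehicle libraries in vehicle replicate 1, and their log2 fold changes were -0.85 ± 0.46 and -0.72 ± 0.33 with all libraries, against -0.13 ± 0.27 and -0.29 ± 0.23 without that library. Ifit3b, uncertain for its likeness to Ifit3, had a log2 fold change of -0.29 ± 0.39.

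Isg15, the ubiquitin-like protein that is joined to other proteins, was at 5.29, 4.98 and 5.15 CPM with estrogen and at 20.5, 3.49 and 4.64 CPM with vehicle. The estrogen libraries were nearly equal (5.14 ± 0.156 CPM, SD, n = 3) and stood above vehicle replicates 2 and 3 but far under vehicle replicate 1. Its log2 fold change was -0.89 ± 0.64 with all libraries and 0.34 ± 0.26 without vehicle replicate 1. Usp18, which removes ISG15 from proteins and dampens the interferon receptor, had log2 fold changes of -0.45 ± 0.34 and -0.02 ± 0.26 in the same fits.

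The 4 sensor genes had overlapping groups, with a median log2 fold change of -0.32. Ddx58, which encodes RIG-I, was at 34.7, 27.7 and 21.2 CPM with estrogen and at 42.4, 32.5 and 35 CPM with vehicle, a log2 fold change of -0.39 ± 0.20. Ifih1, which encodes the RNA sensor MDA5, and Eif2ak2, the RNA-activated kinase PKR that stops translation, had log2 fold changes of -0.26 ± 0.15 and -0.20 ± 0.16. Zbp1, a sensor of Z-form nucleic acid that can start inflammatory cell death, was at 14.7, 12.8 and 6.06 CPM with estrogen and at 31.2, 12.1 and 13.4 CPM with vehicle. Vehicle replicate 1 was high and estrogen replicate 3 low, while the other 4 libraries lay close together (log2 fold change -0.75 ± 0.45, and -0.18 ± 0.37 without vehicle replicate 1).

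The large GTPases split into pairs. Mx1 and Mx2, dynamin-like antiviral proteins that are defective in many inbred laboratory strains, were expressed at low levels, with averages of 3.01 ± 1.75 (estrogen) and 5.17 ± 3.53 CPM (vehicle) for Mx1, and of 1.85 ± 0.587 (estrogen) and 3.15 ± 1.43 CPM (vehicle) for Mx2, annotated as a polymorphic pseudogene (SD, n = 3 each). Their log2 fold changes were -0.77 ± 0.60 and -0.76 ± 0.44. The guanylate-binding proteins attack membranes of intracellular microbes. Gbp2 was at 57.6, 38.7 and 46.7 CPM with estrogen and at 50.1, 41.5 and 49.5 CPM with vehicle, and Gbp3 was at 30.2, 19.7 and 30.6 CPM with estrogen and at 29.8, 20.5 and 22.1 CPM with vehicle. The groups overlapped for both, estrogen replicate 2 was the lowest library for both, and the log2 fold changes were 0.02 ± 0.17 and 0.16 ± 0.22.

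Parp9 and Dtx3l encode the partners of a complex that links ADP-ribosylation to ubiquitin. Parp9 was at 63.3, 43.9 and 61.3 CPM with estrogen and at 56.7, 41.8 and 53.3 CPM with vehicle, and Dtx3l was at 49.9, 32.3 and 48.5 CPM with estrogen and at 43.5, 34.9 and 44.5 CPM with vehicle. For both genes estrogen replicate 2 and vehicle replicate 2 were the low libraries of their groups, and the log2 fold changes were 0.15 ± 0.18 and 0.09 ± 0.19. Their neighbour Parp14, a mono-ADP-ribosyltransferase, had a log2 fold change of -0.37 ± 0.20. In Gbp2, Gbp3, Parp9 and Dtx3l, which are 4 of the 5 members with a positive fitted change, vehicle replicate 1 was at 1.10 to 1.40 times the mean of the other vehicle libraries.

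**Figure D3:**
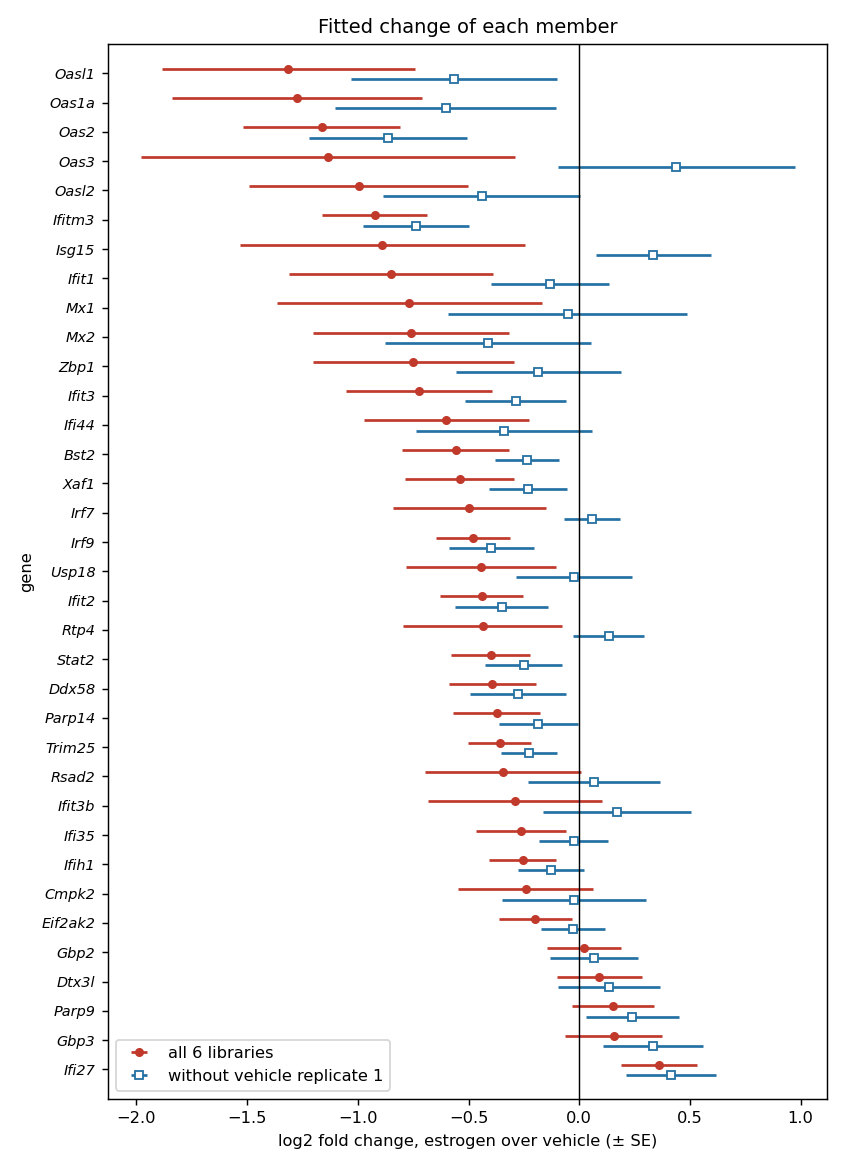
Fitted log2 fold change (estrogen over vehicle, ± SE) of each member with all 6 libraries (filled circles) and without vehicle replicate 1 (open squares). Without that library 30 of 35 values lie nearer to 0, and those of Oas3 and Isg15 move from -1.13 and -0.89 to 0.44 and 0.34.

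The fifth member with a positive change was Ifi27, the most abundant member per base of gene length. Ifi27, whose product lies in mitochondrial and nuclear membranes (ENSMUSG00000064215, chromosome 12, 103434211 to 103440239), was at 542, 728 and 629 CPM with estrogen and at 529, 429 and 521 CPM with vehicle. Each estrogen library was above each vehicle library, estrogen replicate 1 by the least, and the log2 fold change was 0.36 ± 0.17 (edgeR unadjusted p = 0.0707, adjusted p = 0.272). Per kilobase, Ifi27 averaged 431 ± 63.6 CPM with estrogen and 336 ± 38.0 CPM with vehicle, followed by Ifitm3 at 168 ± 41.0 and 319 ± 71.8, Bst2 at 38.5 ± 4.73 and 56.6 ± 19.7, and Gbp2 at 18.9 ± 3.77 and 18.7 ± 1.89 CPM per kilobase (SD, n = 3 each). The levels of the other 31 members lay under these averages, down to Ifi44 at 0.306 ± 0.0346 and 0.465 ± 0.183 CPM per kilobase.

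Trim25, a ubiquitin ligase that helps to activate RIG-I (ENSMUSG00000000275, chromosome 11, 88999376 to 89020293), was at 66.5, 74.0 and 71.5 CPM with estrogen and at 107, 79.8 and 85.5 CPM with vehicle. The estrogen libraries were tightly grouped under all 3 vehicle libraries, with a log2 fold change of -0.36 ± 0.14, and -0.23 ± 0.13 without vehicle replicate 1. Xaf1, which encodes a promoter of cell death, was also non-overlapping, at 11, 10.1 and 11.6 CPM with estrogen and at 22.1, 13.8 and 11.8 CPM with vehicle. Its estrogen replicate 3 nearly reached vehicle replicate 3, and the log2 fold change of -0.54 ± 0.25 became -0.23 ± 0.18 without vehicle replicate 1. Ifi35 and Rtp4 had log2 fold changes of -0.26 ± 0.20 and -0.44 ± 0.36, with vehicle replicate 1 again the high library, and that of Ifi44 was -0.60 ± 0.37.

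Other genes of the pathway were read from lists in the same fit. Of 21 interferon ligand genes, 18 had 0 counts in all 6 libraries, among them Ifnb1 and the 13 Ifna genes listed. Ifng had 2 counts in estrogen replicate 3 and 1 in vehicle replicate 3, Ifnk had 4 and 3 counts in vehicle replicates 1 and 2, and Ifnz had 2 in vehicle replicate 1. Interferon transcripts were thus at or near the floor in both groups, and a difference was not detectable at this depth. Of the 15 tested genes for receptors and JAK-STAT signalling, 0 passed over all genes (median log2 fold change -0.06). At an unadjusted edgeR p under 0.05, 10.9% of all tested genes were lower and 9.49% higher. In this list 3 genes were lower and 0 higher. These were Il10rb, a subunit of the type III interferon receptor, at -0.62 ± 0.17, Ifnar1 at -0.46 ± 0.13, and Ifngr2, a subunit of the type II receptor, at -0.78 ± 0.23. Ifnar1 was at 60.3, 55.7 and 51.4 CPM with estrogen and at 82.3, 81.0 and 67.4 CPM with vehicle, without overlap, while Ifnar2 was at 59.0, 66.8 and 63.2 CPM with estrogen and at 62.9, 60.6 and 56.4 CPM with vehicle. The kinase gene Jak1 followed at -0.34 ± 0.16.

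Among 15 tested genes of nucleic acid sensing upstream of interferon, 12 had a negative change, against 49.7% of all tested genes. At an unadjusted edgeR p under 0.05, 5 were lower and 0 higher, against 10.9% and 9.49% of all tested genes. The median log2 fold change was -0.40, and -0.21 without vehicle replicate 1. Tlr7, the endosomal receptor for single-stranded RNA, was at 10.1, 8.77 and 6.20 CPM with estrogen and at 15.3, 19.7 and 14.4 CPM with vehicle, a log2 fold change of -0.98 ± 0.23. Tmem173, which encodes STING, the adaptor for cytosolic DNA, was at 22, 20.4 and 15.8 CPM with estrogen and at 27.8, 34.1 and 29.4 CPM with vehicle, a log2 fold change of -0.65 ± 0.16. Neither passed over all genes by edgeR (adjusted p = 0.207 for both), whereas DESeq2 called both lower. For both, vehicle replicate 2 was the high library, and without vehicle replicate 1 the changes of Tlr7 and Tmem173 were -1.03 and -0.71. Unc93b1, which carries these receptors to endosomes, and Tlr8, another endosomal receptor, had log2 fold changes of -0.68 ± 0.25 and -1.51 ± 0.56.

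Of 11 tested genes listed for restraint of interferon signalling, 10 had a negative change, against 49.7% of all tested genes (median log2 fold change -0.23). The gene with a positive change is counted again in the list of other interferon-stimulated genes. Only 1 gene, Socs3, was lower at an unadjusted edgeR p under 0.05, against 10.9% of all tested genes. Socs3, a feedback inhibitor of JAK kinases, was at 31.6, 27.6 and 18.5 CPM with estrogen and at 55.8, 54.6 and 57.4 CPM with vehicle. The vehicle libraries were nearly equal and well above the estrogen ones, with a log2 fold change of -1.11 ± 0.19 (edgeR adjusted p = 0.207), and DESeq2 called it lower. Socs1, a related inhibitor, Samhd1, which breaks down deoxynucleotides, and Rnaseh2b, a subunit of RNase H2, followed at log2 fold changes of -0.70 ± 0.32, -0.60 ± 0.27 and -0.48 ± 0.24.

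Of 64 tested interferon-stimulated genes outside the 35, 41 had a negative change, against 49.7% of all tested genes, and 0 passed over all genes. At an unadjusted edgeR p under 0.05, 13 were lower and 2 higher, against 10.9% and 9.49% of all tested genes. The median log2 fold change was -0.18, and -0.01 without vehicle replicate 1. The genes of smallest p were Ifi205, Ifi207 and Ifi211, members of the p200 family of nuclear DNA-binding proteins, and Ly6a, the stem cell antigen also carried by fat progenitors. Ifi205 was at 26.5, 37.2 and 24.9 CPM with estrogen and at 54.0, 77.2 and 61.0 CPM with vehicle (log2 fold change -1.12 ± 0.20, and -1.23 without vehicle replicate 1). Ifi207 was at 39.2, 34.2 and 32.4 CPM with estrogen and at 52.8, 54.5 and 53.3 CPM with vehicle (-0.60 ± 0.11), and Ifi211 and Ly6a had log2 fold changes of -0.99 ± 0.24 and -0.99 ± 0.21. The groups overlapped for none of these 4, and DESeq2 called all 4 lower. Picking genes by smallest p largely fixes both results in advance. Of the 64 genes, DESeq2 called 8 lower and 0 higher, against 468 and 386 of all 15591 tested genes. Every estrogen library lay under every vehicle library for 15 of the 64, against 14.7% of all tested genes. The reverse held for 3, against 12.8%. The 2 genes higher at an unadjusted edgeR p under 0.05, named after their values were seen, were Gbp4 and Parp10. Gbp4, another guanylate-binding protein gene, was at 31.6, 16.1 and 32.0 CPM with estrogen and at 15.3, 13.7 and 17.4 CPM with vehicle. Parp10, a mono-ADP-ribosyltransferase gene, had a log2 fold change of 0.31 ± 0.13.

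**Figure D4:**
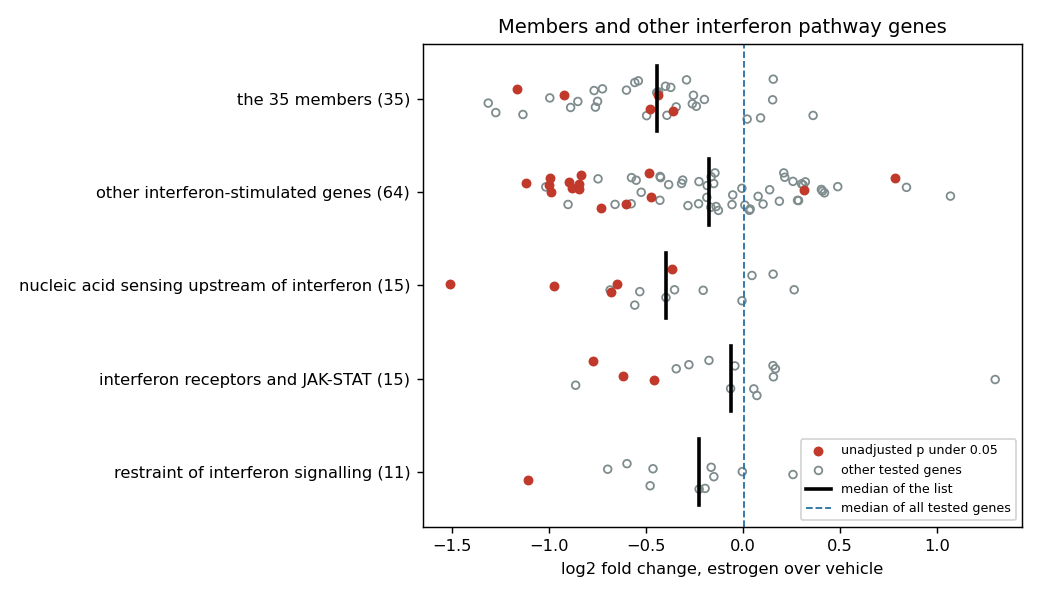
Log2 fold change (estrogen over vehicle) of each tested gene in the 35 members and 4 other lists of the pathway, with the list median as a black bar and the median of all tested genes as a dashed line. List medians run from -0.45 for the members to -0.06 for receptors and JAK-STAT genes, and filled points have an unadjusted edgeR p under 0.05.

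Markers of several other cells also differed between groups or libraries, and not always in the same libraries as the members. Macrophage markers summed to 1579, 1992 and 651 CPM with estrogen and to 2891, 3768 and 2578 CPM with vehicle, without overlap. A negative change was fitted for 10 of 10 genes, against 49.7% of all tested genes. At an unadjusted edgeR p under 0.05, 7 of 10 were lower, against 10.9% of all tested genes. Estrogen replicate 3, lowest for 16 members, was also lowest in macrophage markers, but vehicle replicate 2 was the highest in these and for 0 members. Monocyte markers summed to 1106, 1131 and 182 CPM with estrogen and to 3441, 5732 and 1949 CPM with vehicle over 6 genes, of which Fn1, a matrix protein gene that fibroblasts also express, held 1000, 1032 and 129 CPM with estrogen and 3102, 5560 and 1823 CPM with vehicle. Without Fn1 the other 5 summed to 105, 98.6 and 52.6 CPM with estrogen and to 339, 172 and 125 CPM with vehicle, so that vehicle replicate 1 was then the highest library. Ly6c2, one of these 5, had a positive log2 fold change of 1.17, opposite to the others. Neutrophil markers were highest in vehicle replicate 1 for 7 of 7 tested genes, against 15.1% of all tested genes. Retnlg, a neutrophil-restricted gene, was at 33.9 CPM there and 1.61 to 3.49 CPM in the other libraries, while Ly6g had 8 counts or fewer in each library. Markers of plasmacytoid dendritic cells, known for abundant type I interferon, summed to 226.5, 143 and 156 CPM with estrogen over 10 genes. With vehicle they summed to 192, 182 and 175 CPM, and 3 of 6 tested genes had a negative change, Bst2 among them. Of this list, Cox6a2 was at 39.4 CPM in estrogen replicate 1, the library with muscle markers, and at 0.0696 to 0.506 CPM elsewhere. Spib (14.3 and 9.68 CPM) and Ly6d (11.4 and 8.36 CPM) were high in estrogen replicates 1 and 3, the libraries with B cell markers. The sum is therefore not a measure of plasmacytoid dendritic cells alone. Siglech, with 15 to 87 counts a library, was at 4.51, 1.70 and 4.597 CPM with estrogen and at 0.762, 1.42 and 1.39 CPM with vehicle. Its high libraries were again estrogen replicates 1 and 3. Siglech, Spib and Ly6d were the tested genes of this list with a positive change. The more abundant Tcf4, Bst2 and Irf8 had log2 fold changes of -0.33, -0.56 and -0.06. Dendritic cell markers summed to 127, 104 and 74.7 CPM with estrogen and to 154, 167 and 127 CPM with vehicle. The part of these cells in the members' values was not tested.

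**Figure D5:**
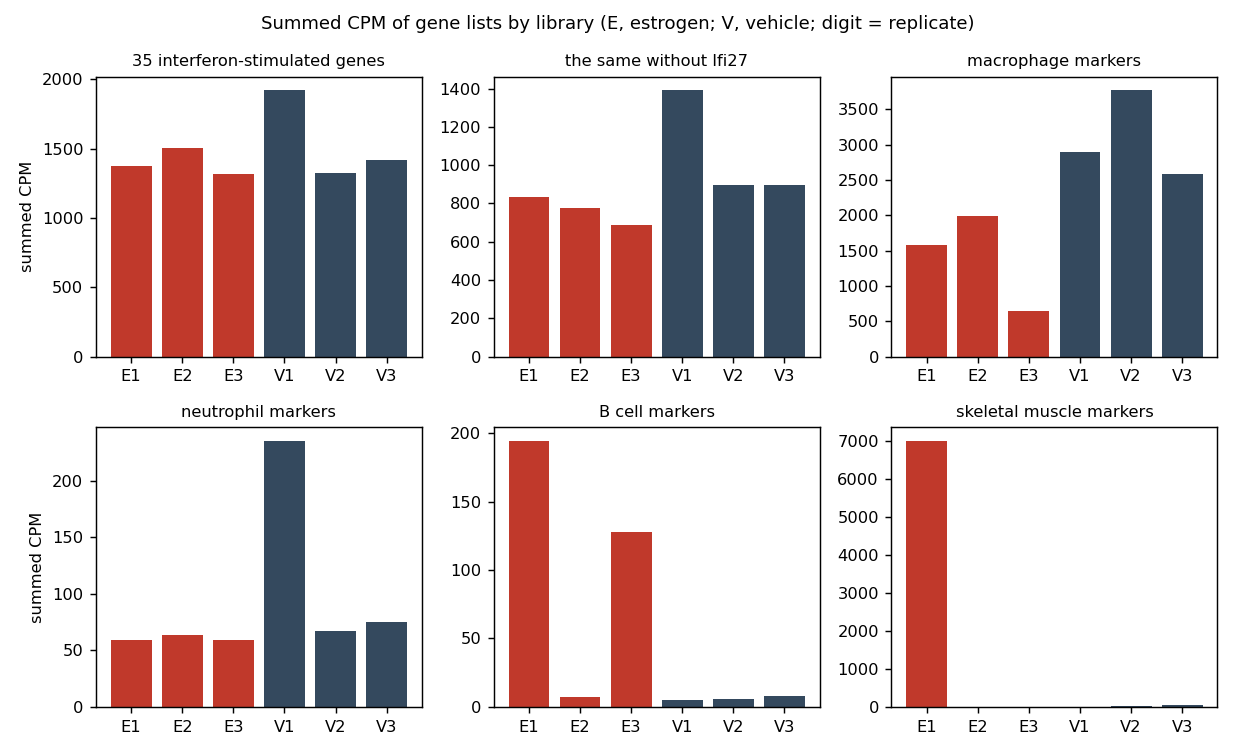
Summed CPM (linear axis from 0) of the 35 members, of the members without Ifi27, and of 4 marker lists in each library, estrogen left of vehicle. Vehicle replicate 1 stands out in the members (1920 CPM) and in neutrophil markers (235 CPM), macrophage markers are lower in each estrogen library, B cell markers are high in estrogen replicates 1 and 3, and muscle markers in estrogen replicate 1.

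T and NK cell markers summed to 85.3, 7.92 and 15.3 CPM with estrogen and to 4.88, 4.15 and 6.68 CPM with vehicle over 11 genes. Fibroblast and progenitor markers summed to 5774, 8598 and 1318 CPM with estrogen and to 15070, 34330 and 12420 CPM with vehicle, without overlap, and endothelial markers to 585, 657 and 806 CPM with estrogen and to 465, 481 and 695 CPM with vehicle. Mammary epithelial markers were near 0, at no more than 0.467 CPM over 7 genes in any library. A fit with estrogen replicate 2, the estrogen library low in lymphocyte and muscle markers, as the lone estrogen library was chosen after the data were seen. It kept vehicle replicate 1, the highest library for 30 of 35 members, and leaving out that library as well was not tested. With this lone estrogen library, 33 of 35 members had a negative fitted change and the median was -0.42, against 55.5% and -0.05 for all tested genes. In that fit the lone library is assumed to vary like the vehicle group, and 1 member was lower at an unadjusted p under 0.05, against 4.14% of all genes.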

How the data were processed

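Total RNA of iWAT was sequenced in 3 estrogen and 3 vehicle libraries. The deposited values are unnormalized whole-number counts of reads for each gene, made with HISAT2 and featureCounts on mm10 per the submitters' processing notes. Versions, the strand setting and the treatment of multi-mapping reads were not stated in the sources available. Gene coordinates were those of the deposited table, and all 35 members had the same start and end in GENCODE M21.

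Groups and replicate numbers came from the sample titles. Counts were TMM-scaled, filtered with filterByExpr (15591 genes) and tested with edgeR 4.0.16 (quasi-likelihood F test, Benjamini-Hochberg adjustment over all genes, threshold 0.05). DESeq2 1.42.0 and limma 3.58.1 (voom), in R 4.3.3, were alternatives, as were other scaling and filters, a replicate block and leaving out libraries. Fold changes are estrogen over vehicle, with SE from the F statistic. The test was checked on simulated data. The members and lists were chosen with earlier results of these data known, and 1 listed gene had no row in the table. Members given in every library were the transcription factors, the 6 of smallest p, the 4 most abundant per length and those of positive change. Others, Oas3, Isg15, Zbp1 and Rsad2 among them, were given in full after their values were seen. In the other pathway lists, up to 4 genes of smallest p were named. Replicates of each group differed by more than counting error (chi-square per degree of freedom of 45.9 to 98.1). One gene of the pathway lists is not reported here by name.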

Additional observations from a re-analysis of the deposited data

How the results depend on the processing

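The members' median log2 fold change stayed below 0 in all 13 alternatives, from -0.63 without vehicle replicate 2 to -0.13 without vehicle replicate 1, and 0 members were called by edgeR or limma-voom in any of them. DESeq2 called 854 genes, 2 members (both lower) and 11 pathway genes, and put 9 members lower at an unadjusted p under 0.05, against 5 in edgeR (11.2% and 10.9% of all genes). The number of members lower at such an edgeR p was 12 with no low-count filter (7.86% of all genes) and 12 with a replicate block (12.6%). The labels do not state whether the numbers pair the libraries, and the deposited column names number some of them differently. In those names estrogen replicate 2 and vehicle replicate 2 carry different numbers, while replicates 1 and 3 share theirs between the groups. The r of deviations was -0.126, 0.203 and 0.311 for replicates 1 to 3. Estrogen replicates 2 and 3 correlated best with the vehicle library of the same number in the titles, and estrogen replicate 1 with vehicle replicate 2 (0.138). Pairing is thus undecided, and the block changed no call. Leaving out 1 library gave 0 to 13 called genes (13 without estrogen replicate 2) and 1 to 11 members lower at an unadjusted p under 0.05 (1 without vehicle replicate 1, 11 without vehicle replicate 2). With estrogen replicate 2 as the lone estrogen library, an alternative chosen after seeing the data, 1 gene was called and 1 member had such a p.

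The sign of the log2 fold change turned when 1 library was left out for Irf7 (-0.71 to 0.059), Oas3 (-1.56 to 0.44), Ifit3b (-0.57 to 0.17), Isg15 (-1.29 to 0.34), Rsad2 (-0.61 to 0.067) and Rtp4 (-0.67 to 0.13), each only without vehicle replicate 1, for Cmpk2 (-0.41 to 0.017) only without estrogen replicate 3, and for Gbp2 (-0.15 to 0.15) and Dtx3l (-0.036 to 0.27) without estrogen replicate 1 or vehicle replicate 2. With the lone estrogen library Gbp2, Gbp3, Parp9 and Dtx3l were at -0.27, -0.28, -0.20 and -0.34, and Cmpk2 at 0.0036. The cause was not tested. Low members such as Oas3, Mx2 and Ifi44, with 17 to 89 counts a library except for Oas3 in vehicle replicate 1, are limited by depth.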
